A study of Mus musculus with 6 samples.

Results

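Aminoacyl-tRNA synthetases join each amino acid to its transfer RNA, and every protein made by a cell passes through them. Animal cells keep separate enzymes for most amino acids in the cytosol and in the mitochondria. The mitochondrial enzymes are encoded in the nucleus, are imported, and serve the few proteins translated inside the organelle. Their genes were taken by symbol from the deposited count tables, as every gene named by the amino acid letter followed by ars, with or without a 1 or 2, together with Farsa, Farsb, Eprs and Tarsl2. The rule took 38 of 55401 listed genes, 17 ending in ars2, which marks a mitochondrial enzyme, and 21 others that encode cytosolic enzymes. Among the cytosolic genes, Gars and Kars also supply the mitochondrial enzyme, and Eprs encodes a single chain that charges glutamate and proline.

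The libraries came from splenic germinal centre B cells, the B cells that divide and mutate their antibody genes after meeting antigen. They were sorted from wild-type (WT) C57BL/6 mice that had been given sheep red blood cells (SRBC) by intraperitoneal injection, with a second dose on day 5 and collection on day 12. All groups share this strain, genotype and treatment, and no source used here gives ages. The cells had been sorted into subsets labelled DP and DN, with 3 libraries of polyadenylated RNA each, and the series asks how the transcriptomes of the subsets differ. The labels do not spell out the markers behind these names. According to the design text 3 mice were used and each contributed to DP and DN, though the mouse behind a given library is not labelled. The p-values therefore describe how these libraries vary, and part of that variation may be technical.

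Gene counts per library ranged from 17509384 to 20538024 in DP and from 8904415 to 11897360 in DN. Levels are given as CPM (counts divided by library size) scaled by TMM, a correction for differences in RNA composition, and changes as log2 fold changes of DP over DN ± standard error. The genes Cd79a, Ms4a1 and Bcl6, among those that mark germinal centre B cells, were detected in all libraries. All 11 genes of that list were tested, of which 1 was higher and 10 were lower in DP, with a summed level of 1720.1 to 1754 CPM in DP and 3492 to 3540 CPM in DN. Of 7 plasma cell genes, 6 were tested, of which 4 were higher (Irf4, Prdm1, Sdc1 and Xbp1) and 1 was lower (Jchain) in DP, with sums of 370 to 381 CPM in DP and 403 to 414 CPM in DN. By the same test, given below, 38.3% of all genes tested were higher and 37.6% lower in DP. Transcripts of other cell types were scarce. Of 9 erythroid genes, 6 could be tested and all 6 were lower, with a summed level of 15.9 to 18.3 CPM in DP and 62.1 to 72.5 CPM in DN. Of 11 macrophage genes, 8 could be tested and all 8 were lower, with sums of 12.8 to 15.7 CPM in DP and 30.6 to 34.9 CPM in DN. The 6 T cell genes summed to 0.978 to 1.25 CPM in DP and 2.12 to 3.67 CPM in DN, and no gene of these lists was at 0 in all libraries. Their part in the values below was not tested. In bulk RNA, a change in the number of cells of one type and a change in RNA per cell cannot be told apart.

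Synthetase transcripts were broadly more abundant in DP, and in both compartments. All 38 genes passed the filter on low counts, with between 28 counts (Pars2 in DN replicate 1) and 22492 counts (Nars in DP replicate 2) in a library. Of the 38, 32 rose in DP and 0 fell at an edgeR adjusted p under 0.05, while 6 did not pass. Over all 11296 genes tested, 75.9% were called, 38.3% as higher and 37.6% as lower in DP. A test against a minimum fold of 1.5 makes fewer calls. It was passed upward by 23 of 38 synthetases and downward by 0, beside 34.3% of all genes in either direction (17.4% upward and 16.9% downward). The median log2 change was 0.85 over the synthetases and 0.01 over all genes tested. The changes ran from -0.17 (Fars2) to 1.497 (Eprs), where the upper end is a 2.82-fold higher level in DP. In 32 genes all DP libraries lay above all DN libraries and in 0 below, beside 77.0% of all genes tested in either order (39.0% above and 38.0% below).

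**Figure D1:**
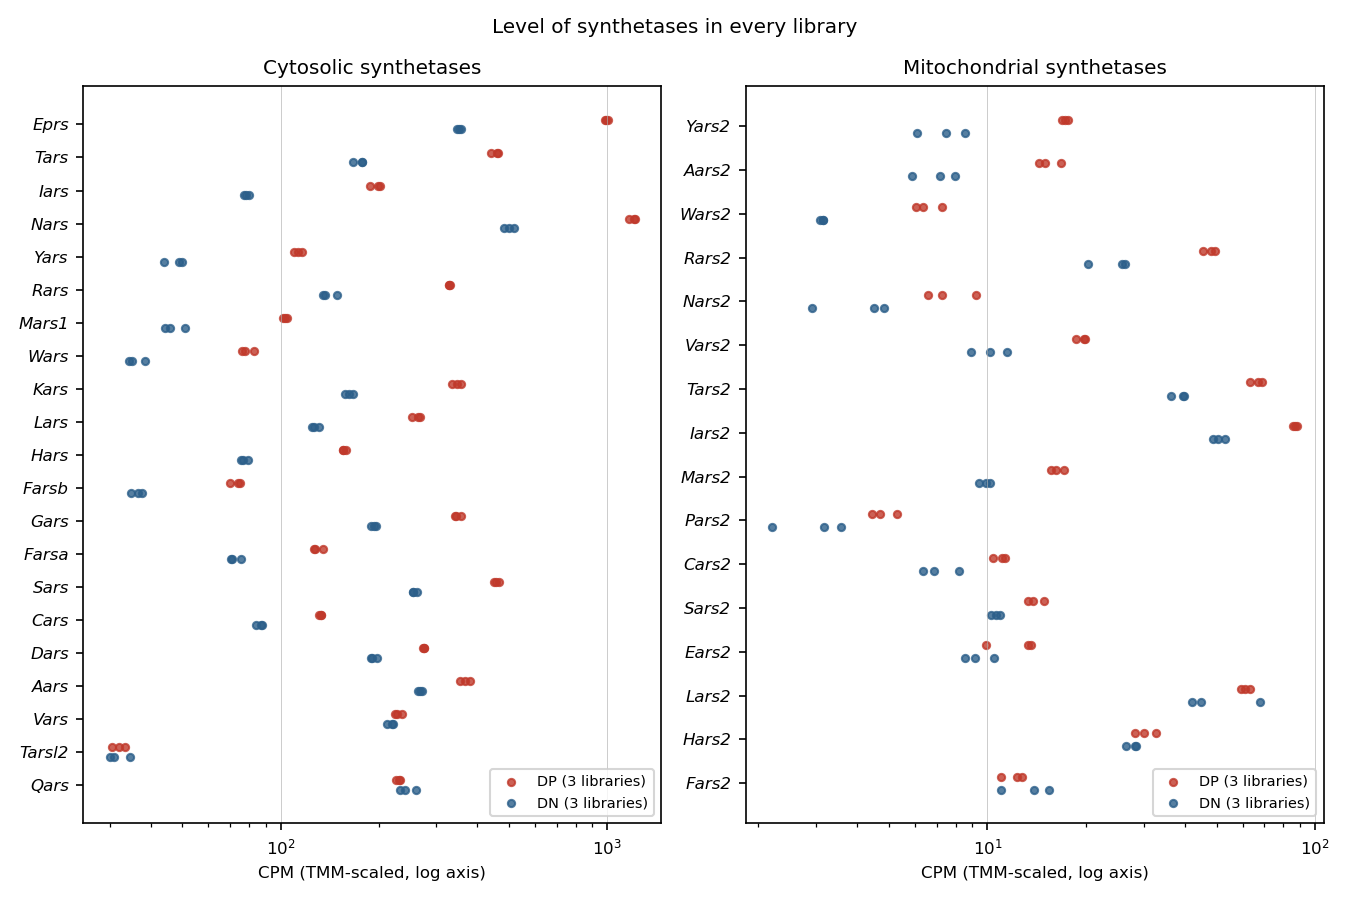
Level of the named synthetase genes in each library, in TMM-scaled CPM on a log axis, with DP libraries as red points set above DN libraries as blue points in each row. The 3 DP points lie wholly to the right of the 3 DN points for 19 of 21 cytosolic and 13 of 17 mitochondrial genes, counting 1 mitochondrial gene that is not drawn.

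Cytosolic enzymes had the larger median change. Of 21 genes, 18 rose and 15 passed the 1.5-fold test, with a median change of 1.02. Eprs, the fused glutamyl- and prolyl-tRNA synthetase, on chromosome 1 (185363044 to 185428360, plus strand, mm10), had 1009, 983 and 989 CPM in DP libraries, against 352, 357 and 347 CPM in DN libraries. Its change was 1.497 ± 0.036 (adjusted p = 7.10e-43), and the groups lay far apart. Tars, the threonyl enzyme, had 461, 442 and 462 CPM in DP and 178, 167 and 177 CPM in DN (1.38 ± 0.04, adjusted p = 2.90e-39). Iars, which charges isoleucine, had 187, 202 and 199 CPM in DP and 80.0, 77.3 and 78.1 CPM in DN (1.32 ± 0.04, adjusted p = 5.16e-35). In each of these genes the spread within a group was a small part of the gap between groups.

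Nars, which charges asparagine, had the highest count and also the highest level per length, given further on. It had 1216, 1165 and 1208 CPM in DP, against 518, 482 and 500.0 CPM in DN (1.26 ± 0.04, adjusted p = 8.80e-39). The tyrosyl enzyme gene Yars (1.25 ± 0.05) and the arginyl enzyme gene Rars (1.23 ± 0.04) rose by similar amounts. So did Mars1 (1.14 ± 0.05), whose product charges methionine on both initiator and elongator tRNA. Wars, the tryptophanyl enzyme and in human cells an interferon-gamma-induced gene, had 77.6, 82.7 and 75.9 CPM in DP and 38.5, 35.1 and 34.4 CPM in DN (1.12 ± 0.06). The 2 genes that serve both compartments rose as well. Kars, the lysyl enzyme, changed by 1.10 ± 0.04 and Gars, the glycyl enzyme, by 0.85 ± 0.04.

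The remaining cytosolic genes formed a graded series. Lars (leucine, 1.03 ± 0.04) and Hars (histidine, 1.02 ± 0.04) rose by nearly the same amount. Farsa and Farsb encode the catalytic and the partner subunit of one phenylalanyl enzyme, and they changed by 0.84 ± 0.05 and 1.01 ± 0.06. Sars, the seryl enzyme, rose by 0.84 ± 0.04 and passed the 1.5-fold test too. Cars (cysteine, 0.61 ± 0.04), Dars (aspartate, 0.51 ± 0.04) and Aars (alanine, 0.46 ± 0.04) rose without passing it. Aars had 354, 379 and 368 CPM in DP and 271, 264 and 267 CPM in DN, so that even this smallest called cytosolic change left the groups apart.

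Qars, Vars and Tarsl2 did not pass. Qars, the glutaminyl enzyme, had 226, 231 and 232 CPM in DP and 231, 259 and 240 CPM in DN (-0.08 ± 0.04, adjusted p = 0.0533), with overlapping groups. Its adjusted p was 0.0417 with DESeq2 size factors and 0.0281 with the replicate number as a block, both with a negative change, and ranged from 5.58e-09 to 0.864 over all 14 alternatives. Vars, the valyl enzyme, had 223, 236 and 227 CPM in DP and 212, 219 and 221 CPM in DN (0.08 ± 0.04, adjusted p = 0.0626). The DP libraries of Vars lay just above those of DN. It passed as higher with the replicate number as a block (0.08, adjusted p = 0.0464) and with no filter (0.15, adjusted p = 3.87e-04). It also did so without DP replicate 1 (adjusted p = 0.0283), without DN replicate 2 (0.0496) and without DN replicate 3 (0.0481). With library totals alone it passed as lower, at -0.12 (adjusted p = 0.00523), and the highest adjusted p over alternatives was 0.479. Tarsl2, a second cytosolic threonyl enzyme, had 33.3, 32.1 and 30.5 CPM in DP and 30.9, 34.5 and 30.0 CPM in DN (0.01 ± 0.07, adjusted p = 0.900). The groups overlapped, unlike those of its close relative Tars. With library totals alone the Tarsl2 change was -0.19 (adjusted p = 0.0173, with a range up to 0.977 over alternatives).

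**Figure D2:**
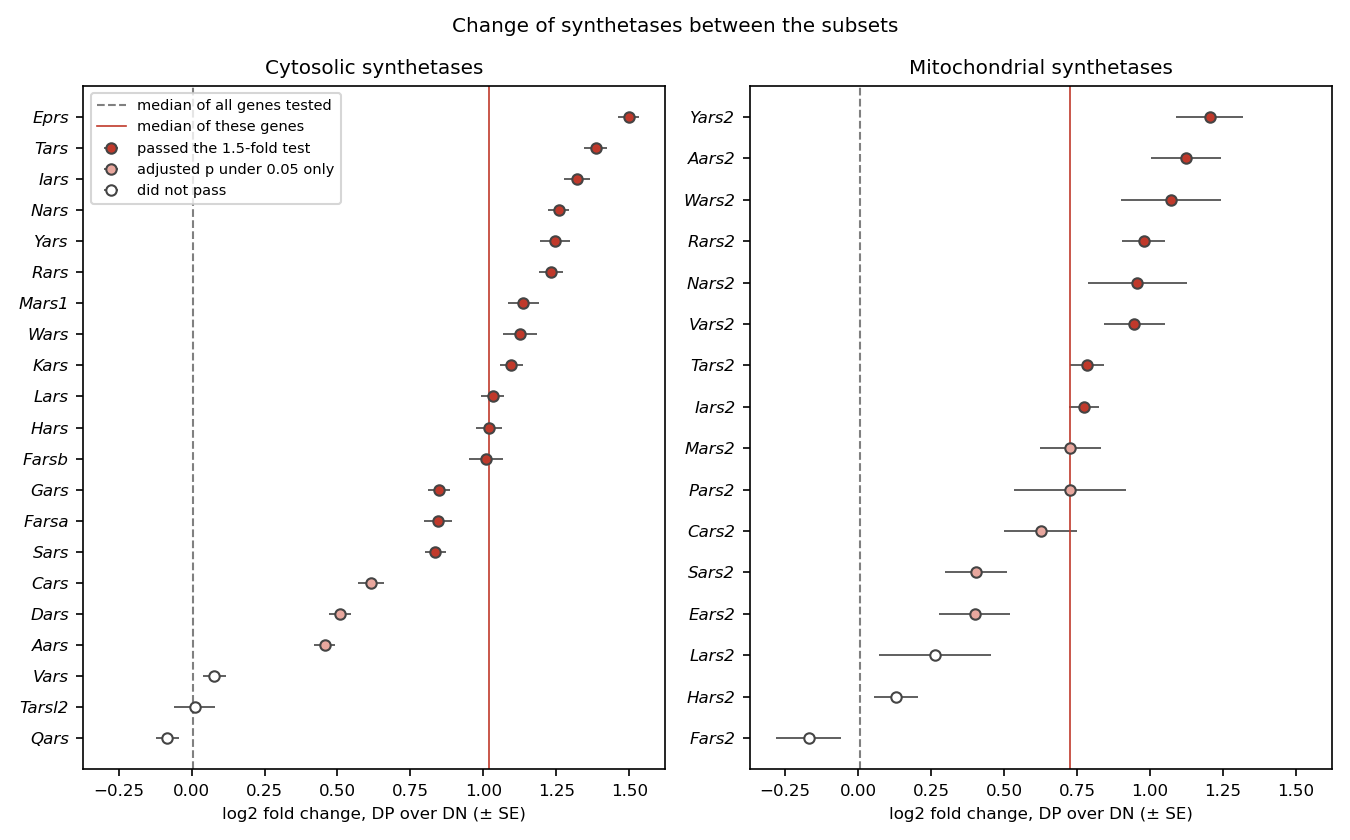
Log2 fold change of DP over DN for the named synthetases, with bars for the standard error. Filled circles passed the 1.5-fold test, pale circles passed an adjusted p of 0.05 only and open circles did not pass; the dashed line is the median of all genes tested (0.01) and the red line the median of each compartment (1.02 for cytosolic and 0.73 for mitochondrial genes).

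Mitochondrial synthetases rose too. Of 17 genes, 14 rose, 0 fell and 8 passed the 1.5-fold test, with a median of 0.73. The largest changes belonged to Yars2 (1.204 ± 0.114), Aars2 (1.12 ± 0.12) and Wars2 (1.07 ± 0.17), the tyrosyl, alanyl and tryptophanyl enzymes of the organelle. Yars2 had 17.3, 16.9 and 17.7 CPM in DP, against 8.57, 6.09 and 7.49 CPM in DN. Aars2 had 14.4, 16.8 and 15.03 CPM in DP and 7.94, 5.88 and 7.18 CPM in DN. The groups of both genes lay apart, on 56 to 326 counts per library.

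Rars2, the arginyl enzyme, had 48.1, 45.5 and 49.6 CPM in DP and 25.8, 26.2 and 20.2 CPM in DN (0.98 ± 0.07). Nars2 (asparagine, 0.96 ± 0.17), Vars2 (valine, 0.95 ± 0.10), Tars2 (threonine, 0.78 ± 0.06) and Iars2 (isoleucine, 0.77 ± 0.05) also passed the 1.5-fold test. Mars2 (methionine, 0.73 ± 0.11), Pars2 (proline, 0.73 ± 0.19) and Cars2 (cysteine, 0.63 ± 0.13) rose without passing it. The same held for Sars2 (serine, 0.40 ± 0.11, adjusted p = 6.51e-04) and Ears2 (glutamate, 0.40 ± 0.12, adjusted p = 0.00279). Those 2 smallest rises did not pass with library totals alone, at 0.21 (adjusted p = 0.0769) for Sars2 and 0.20 (adjusted p = 0.126) for Ears2. The ranges over all alternatives were 6.78e-05 to 0.0769 for Sars2 and 1.74e-04 to 0.126 for Ears2. Ears2 had 13.6, 13.3 and 9.90 CPM in DP and 8.57, 10.5 and 9.13 CPM in DN, so 1 DP library overlapped the DN range.

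Hars2, Fars2 and Lars2 did not pass. Hars2, the mitochondrial histidyl enzyme, had 30.0, 32.6 and 28.1 CPM in DP and 28.3, 26.5 and 28.2 CPM in DN (0.13 ± 0.07, adjusted p = 0.108), with overlapping groups. Hars2 passed as higher with no filter (0.20, adjusted p = 0.0176) and without DP replicate 3 (0.19, adjusted p = 0.0392), and its adjusted p reached 0.424 with library totals alone, where the change was -0.0665. It lies head to head with Hars on chromosome 18, with Hars on the minus strand from 36766528 to 36783205 and Hars2 on the plus strand from 36783008 to 36792562 in GENCODE M21 (mm10). These neighbours share 195 bases of exon on opposite strands, yet Hars had 159, 156 and 155 CPM in DP and 76.6, 75.6 and 79.5 CPM in DN. Fars2, the mitochondrial phenylalanyl enzyme, had 12.8, 12.3 and 10.998 CPM in DP and 15.4, 13.9 and 10.98 CPM in DN (-0.17 ± 0.11, adjusted p = 0.155). It had the lowest fitted change of the family. Without DN replicate 3 its change was -0.28 (adjusted p = 0.0252), and over all alternatives its adjusted p ranged from 0.00244 to 0.789.

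Lars2, the mitochondrial leucyl enzyme, depended on a single library. It had 59.4, 63.4 and 61.2 CPM in DP, against 45.0, 67.6 and 42.2 CPM in DN (0.26 ± 0.19, adjusted p = 0.275). DN replicate 2 stood above all DP libraries and the other DN libraries below them. With the replicate number as a block the change was 0.26 ± 0.11 (adjusted p = 0.0634). Without DN replicate 2 the change was 0.50 ± 0.06 (adjusted p = 1.84e-10), while the adjusted p reached 0.772 over the other alternatives. The same library was highest for CT010467.1, a gene annotated as ribosomal RNA, which had 428, 531 and 462 CPM in DP and 785, 1469.7 and 803 CPM in DN. The part of ribosomal RNA reads in the Lars2 value was not tested.

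**Figure D3:**
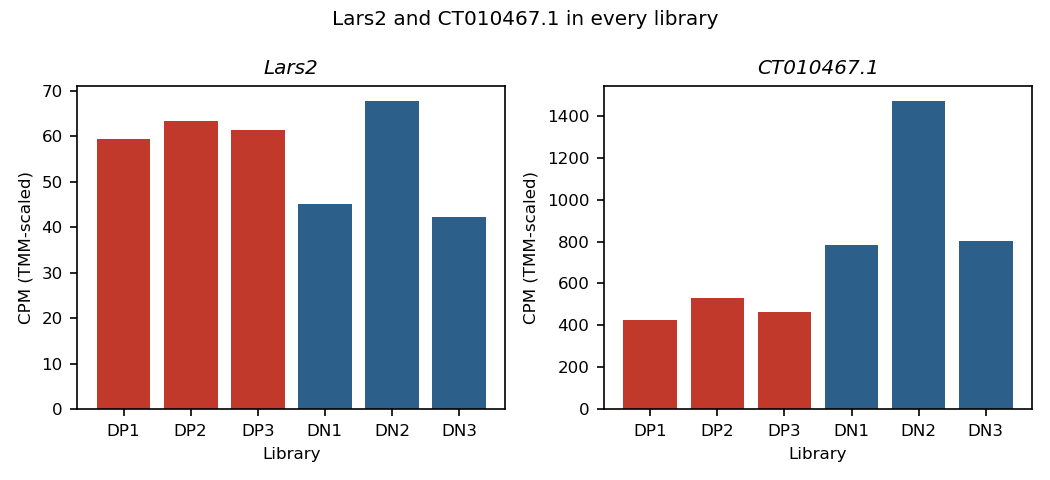
Level of Lars2 (left) and of the ribosomal RNA gene CT010467.1 (right) in each library, in TMM-scaled CPM, with DP libraries in red and DN libraries in blue. DN replicate 2 is highest in both panels, at 67.6 and 1469.7 CPM.

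Summed over genes, cytosolic synthetases reached 6500.4 ± 11.4 CPM in DP and 3340 ± 4.91 CPM in DN (SD, n = 3 each), a ratio of 1.95. Mitochondrial synthetases summed to 477 ± 7.67 CPM in DP and 313 ± 22.1 CPM in DN, a ratio of 1.53. As shares of all gene counts, without TMM scaling, cytosolic synthetases took 0.607% ± 0.00426 in DP and 0.357% ± 0.000558 in DN. Mitochondrial ones took 0.0445% ± 0.00108 in DP and 0.0334% ± 0.00238 in DN.

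The compartments were also set against each other within each library, which removes the library scaling. For each amino acid with separate genes, the log2 ratio of cytosolic to mitochondrial CPM was taken, in 18 gene pairs. The ratio is not corrected for length, so only its difference between the subsets is read. The ratio was higher in every DP library than in any DN library for 10 pairs, lower for 2 pairs and overlapping for 6. Eprs and Fars2 each enter 2 pairs. Threonine enters only as Tars over Tars2, and Tarsl2, the second cytosolic threonyl gene, was not paired. Tarsl2 changed by 0.01 ± 0.07 and Tars2 by 0.78 ± 0.06. The ratio of Tarsl2 to Tars2, not counted here, was therefore lower in DP. Among all single genes tested, 77.0% had groups that did not overlap, and ratios of other gene pairs were not counted. The number of separated pairs is therefore not read as a compartment effect. The median difference of DP minus DN was 0.42. With 3 libraries a group the exact two-sided permutation test cannot give a p under 0.1. That value was reached by the 12 pairs whose groups did not overlap (0.15 after Benjamini-Hochberg adjustment over the 18 pairs).

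The ratio shifted most for phenylalanine, glutamate and histidine. Farsb over Fars2 had log2 ratios of 2.46, 2.60 and 2.75 in DP and 1.18, 1.40 and 1.78 in DN, a difference of 1.15. Hars over Hars2 had 2.40, 2.25 and 2.47 in DP and 1.44, 1.51 and 1.49 in DN, a difference of 0.89. Eprs rose against both of its mitochondrial counterparts, by 1.12 over Ears2 and by 0.78 over Pars2. Among the 18 pairs, valine and alanine went the other way. Vars over Vars2 had 3.58, 3.58 and 3.52 in DP and 4.57, 4.26 and 4.44 in DN, a difference of -0.86. Aars over Aars2 had 4.62, 4.50 and 4.61 in DP and 5.09, 5.49 and 5.22 in DN, a difference of -0.69. For these 2 amino acids the mitochondrial transcript gained on the cytosolic one in DP. The tyrosine, cysteine and tryptophan pairs kept differences between -0.0038 and 0.07, with overlapping groups.

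**Figure D4:**
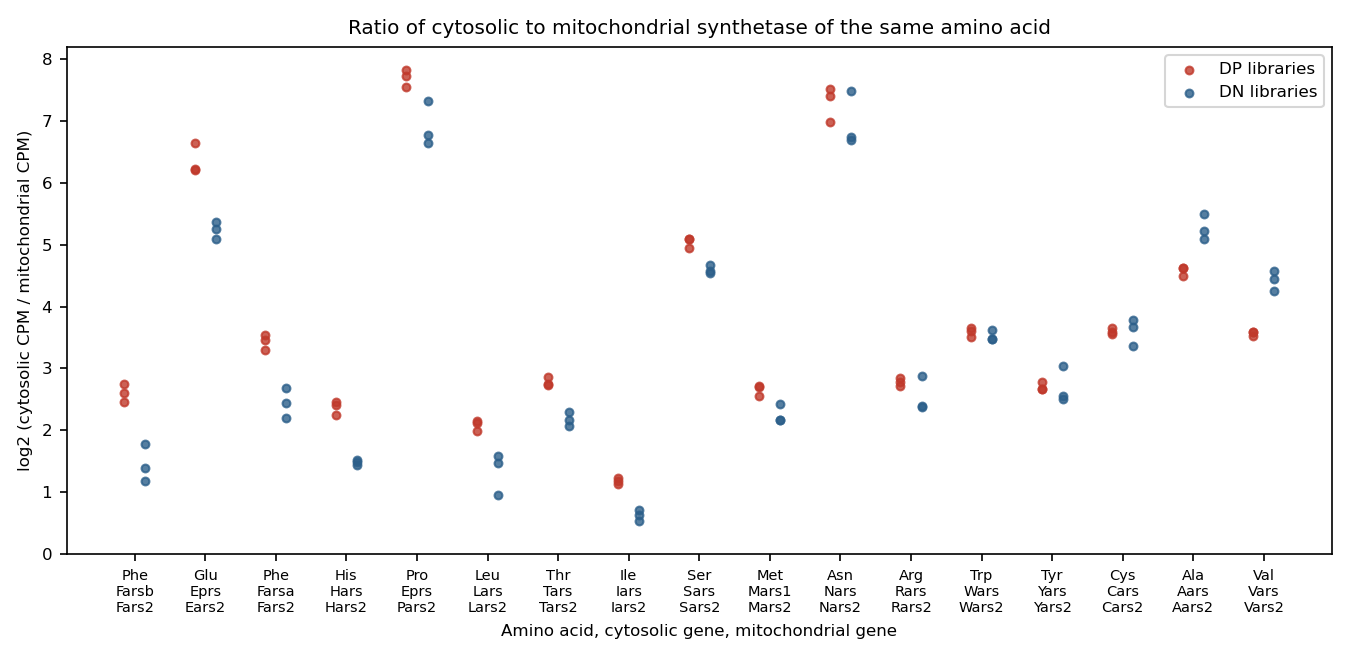
Log2 ratio of the cytosolic to the mitochondrial synthetase of the same amino acid, with DP libraries in red left of DN libraries in blue, ordered by the difference between groups, for 17 of the 18 pairs. The differences run from 1.15 for Farsb over Fars2 to -0.86 for Vars over Vars2.

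Per unit of length, Nars was highest in both subsets, with 944 ± 20.1 TPM (transcript abundance corrected for length and depth) in DP and 452 ± 18.5 TPM in DN. On the summed exon length of each gene, it was followed in DP by Gars (382 ± 9.41 TPM), Rars (350 ± 0.703 TPM) and Sars (306 ± 4.29 TPM). In DN the next were Gars (244 ± 5.77 TPM), Sars (197 ± 2.66 TPM), Dars (174 ± 3.98 TPM) and Rars (171 ± 8.16 TPM), and the last 2 did not differ beyond their spread. Mitochondrial enzymes ranged from 3.78 to 59.2 TPM in DP and from 2.07 to 34.2 TPM in DN, and cytosolic ones from 16.3 to 944 TPM in DP and from 18.6 to 452 TPM in DN. At the low end, Wars2 had 3.78 ± 0.364 TPM in DP and 2.07 ± 0.0348 TPM in DN, and Nars2 had 3.79 ± 0.677 TPM in DP and 2.30 ± 0.569 TPM in DN, so that they did not differ beyond their spread. The order of the others depends on the length used. With the transcript of the longest coding sequence, Sars (527 TPM) and Eprs (434 TPM) came after Nars in DP, and Sars (340 TPM) and Dars (219 TPM) in DN. The lowest in DP was then Mars2 (3.10 ± 0.163 TPM), within the spread of Wars2 (3.18 ± 0.305 TPM).

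Synthetases fall into structurally unrelated class I and class II folds. In the cytosol 7 of 9 class I genes rose, with a median of 1.12, and 10 of 11 class II genes, with a median of 0.85, leaving out Eprs, which holds both. In mitochondria 8 of 9 class I genes rose, with a median of 0.77, and 6 of 8 class II genes, with a median of 0.60. Of all genes tested, 38.3% were higher in DP. In the cytosol, several enzymes sit together in the multi-synthetase complex. Of its 8 enzymes (Eprs, Iars, Lars, Kars, Mars1, Qars, Rars and Dars), 7 rose and 6 passed the 1.5-fold test, with a median of 1.12. The 13 cytosolic genes outside it had a median of 0.85, and 11 rose. The complex is held by 3 scaffold proteins whose genes all rose. Eef1e1 had 53.3 ± 0.214 CPM in DP and 12.8 ± 1.46 CPM in DN (2.07 ± 0.08), Aimp2 changed by 1.55 ± 0.09 and Aimp1 by 0.48 ± 0.05. The estimates for Eef1e1 and Aimp2 were above that of any enzyme and that of Aimp1 was among the lower ones. Differences between genes were not tested.

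ATF4 is the transcription factor that cells activate through eIF2 alpha phosphorylation when uncharged tRNA or other stress is sensed, and many cytosolic synthetase genes are among its reported targets. Of the 12 synthetases listed as such targets (Aars, Cars, Eprs, Gars, Iars, Lars, Mars1, Nars, Sars, Tars, Wars and Yars), 12 rose and 10 passed the 1.5-fold test, with a median of 1.13. Of the other 9 cytosolic synthetases, 6 rose and 5 passed that test, with a median of 0.84, and Qars, Vars and Tarsl2 belong to these 9. Among all genes tested, 38.3% were higher and 37.6% lower in DP, and 17.4% passed the 1.5-fold test upward. Atf4 itself had 212 ± 3.13 CPM in DP and 196 ± 4.09 CPM in DN (0.12 ± 0.04, adjusted p = 0.005). Of 23 tested genes in the list of ATF4 and its other targets, 14 rose, 3 fell and the median was 0.75. The serine and one-carbon enzymes Phgdh (1.59 ± 0.04) and Shmt2 (1.39 ± 0.04) and the amino acid transporter subunits Slc7a5 (2.59 ± 0.08) and Slc3a2 (1.64 ± 0.05) rose. The stress-linked factor genes Atf3 and Ddit3 fell by 4.73 ± 0.48 and by 0.35 ± 0.12. The size of the Atf3 change rests on few counts, at 1, 2 and 1 in DP and 28, 19 and 25 in DN. Atf4, Atf3 and Ddit3 were singled out after their values were seen. A part of ATF4 in these changes was not tested.

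The list titled amino acid stress sensing had 9 tested genes, and it also holds kinases of other stresses and the kinase substrate. Of the 9, 4 rose, 4 fell and the median was -0.01, shares close to the 38.3% higher and 37.6% lower among all genes. That median therefore does not describe amino acid sensing alone. Eif2ak3, the endoplasmic reticulum kinase PERK, had 59.8 ± 2.28 CPM in DP and 326 ± 2.23 CPM in DN (-2.45 ± 0.04), and Eif2ak2, the RNA-activated kinase PKR, fell by 0.35 ± 0.04. Gcn1, a partner of the kinase GCN2 that binds uncharged tRNA, rose by 1.05 ± 0.05, and the kinase substrate gene Eif2s1 by 0.88 ± 0.04. GCN2 itself, Eif2ak4, changed by 0.13 ± 0.06 (adjusted p = 0.0406), and was singled out after its value was seen.

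RefSeq windows (GRCm38.p6) from 250 bases before to 50 after the annotated start were matched for 28 of 38 synthetase genes, and those of Nars, Rars, Wars, Lars, Hars, Pars2, Cars, Hars2 and Vars were among those not matched. The 3 motifs below were searched on both strands, and none overlapped another in the windows shown. TGATGCA, the core letters of the C/EBP-ATF response element bound by ATF4, was found in 5 of 14 cytosolic and 0 of 14 mitochondrial genes, beside 3.63% of the 27025 genes in the table. CACGTG, the E-box that MYC and other factors bind, was found in 4 of 14 cytosolic genes and 1 of 14 mitochondrial genes, beside 8.09% of all genes. CCGGAAG, an ETS motif, was found in 5 of 14 cytosolic and 4 of 14 mitochondrial genes, beside 9.93% of all genes. A match describes these letters and not a bound site.

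The windows of the 5 genes with TGATGCA are shown, since they include 3 of the 5 largest rises and also Tarsl2, which did not pass the test. Capitals mark TGATGCA or its reverse complement and CACGTG, and each sequence runs 5′ to 3′ on the strand of its gene. They lie at chr15:11399609-11399908 (minus strand, Tars), chr13:49681880-49682179 (plus, Iars), chr4:129189653-129189952 (plus, Yars), chr8:111033592-111033891 (plus, Aars) and chr7:65644648-65644947 (plus, Tarsl2).
Tars: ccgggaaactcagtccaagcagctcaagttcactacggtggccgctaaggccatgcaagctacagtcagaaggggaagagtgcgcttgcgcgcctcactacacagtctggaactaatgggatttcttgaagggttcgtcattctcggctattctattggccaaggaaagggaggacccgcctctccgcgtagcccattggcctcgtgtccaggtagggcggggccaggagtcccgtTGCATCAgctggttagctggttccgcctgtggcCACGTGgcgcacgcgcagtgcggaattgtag
Iars: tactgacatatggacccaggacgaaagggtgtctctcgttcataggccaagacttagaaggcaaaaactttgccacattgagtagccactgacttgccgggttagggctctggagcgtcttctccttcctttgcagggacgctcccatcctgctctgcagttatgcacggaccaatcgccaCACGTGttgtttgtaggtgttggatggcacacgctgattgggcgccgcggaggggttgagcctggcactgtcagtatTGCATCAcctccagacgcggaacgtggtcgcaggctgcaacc
Yars: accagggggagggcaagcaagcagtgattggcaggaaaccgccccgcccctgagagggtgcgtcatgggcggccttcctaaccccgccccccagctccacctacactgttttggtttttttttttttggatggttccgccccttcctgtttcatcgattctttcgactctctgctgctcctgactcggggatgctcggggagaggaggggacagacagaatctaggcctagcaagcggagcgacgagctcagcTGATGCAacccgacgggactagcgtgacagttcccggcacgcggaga
Aars: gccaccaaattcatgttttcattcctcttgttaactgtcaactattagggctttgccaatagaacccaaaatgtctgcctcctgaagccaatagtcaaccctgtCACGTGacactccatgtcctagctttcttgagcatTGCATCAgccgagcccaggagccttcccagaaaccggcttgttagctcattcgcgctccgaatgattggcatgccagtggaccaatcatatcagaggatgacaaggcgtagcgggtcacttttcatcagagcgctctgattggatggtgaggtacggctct
Tarsl2: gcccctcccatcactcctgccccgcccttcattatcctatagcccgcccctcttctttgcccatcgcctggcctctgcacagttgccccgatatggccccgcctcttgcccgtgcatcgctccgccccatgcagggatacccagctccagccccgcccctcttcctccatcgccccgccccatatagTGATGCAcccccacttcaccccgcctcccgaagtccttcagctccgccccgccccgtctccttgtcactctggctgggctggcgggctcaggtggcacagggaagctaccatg

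Tars, Iars and Aars held both motifs, with changes of 1.38 in Tars, 1.32 in Iars and 0.46 in Aars. Yars and Tarsl2 held TGATGCA alone, with changes of 1.25 and 0.01. In Tars the TGATGCA letters began 14 bases before the start, and in Yars 4 bases into the transcript. In Tarsl2 they began 63 bases before it.

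Mitochondria make glutaminyl-tRNA by converting glutamate after Ears2 has charged it, using an amidotransferase of Gatb, Gatc and Qrsl1. Gatb (0.89 ± 0.11) and Gatc (0.56 ± 0.11) rose while Qrsl1 had 39.6 ± 1.30 CPM in DP and 48.7 ± 4.68 CPM in DN (-0.31 ± 0.06), so that subunits of one enzyme changed in opposite directions. Mtfmt, which formylates the mitochondrial initiator methionyl-tRNA, rose by 0.61 ± 0.12. Of 5 tested proofreading and synthetase-like genes, 2 rose, a share close to the 38.3% of all genes. Dtd1 (0.94 ± 0.06) and Dtd2 (0.74 ± 0.12), which remove D-amino acids from tRNA, were the 2 that rose. Sepsecs, Pstk and Prorsd1 did not pass, with changes of 0.20, 0.37 and 0.12, and Aarsd1 was below the filter, with 7, 11 and 7 counts in DP and 3, 3 and 4 counts in DN.

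Of 23 tRNA maturation genes, 18 rose, 2 fell, 3 did not pass and the median was 0.92, and 15 passed the 1.5-fold test upward. Among all genes tested, 38.3% were higher and 37.6% lower in DP, and 17.4% passed the 1.5-fold test upward. Elac2, which trims the 3′ end, rose by 1.80 ± 0.05, the tRNA exporter Xpot by 1.83 ± 0.05, Thg1l, which adds a guanosine to histidine tRNA, by 1.63 ± 0.06 and Pop1 of RNase P by 1.82 ± 0.07. Of 60 tested tRNA modification genes, 50 rose, 3 fell, 7 did not pass and the median was 0.71. The methyltransferase gene Nsun2 rose by 2.03 ± 0.04, and the pseudouridine synthase genes Pus7 and Pus1 by 3.00 ± 0.07 and 2.05 ± 0.07. The estimates for Nsun2, Pus7, Pus1, Elac2, Xpot, Pop1 and Thg1l were above that of any synthetase, without a test of the difference.

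**Figure D5:**
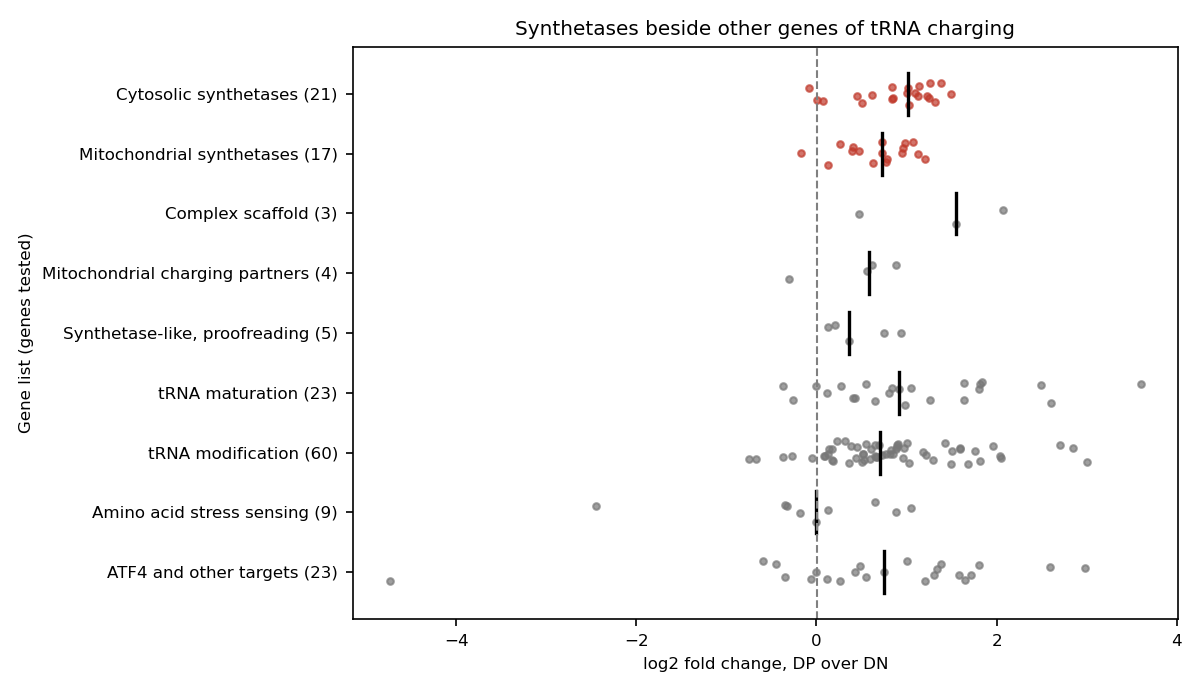
Log2 fold change of DP over DN for each tested gene of the synthetases (red) and of other lists (grey), with black bars for list medians and a dashed line for the median of all genes tested. The medians are 1.02 for cytosolic and 0.73 for mitochondrial synthetases and 0.92 for tRNA maturation. The median is -0.01 for the list titled amino acid stress sensing, which also holds kinases of other stresses.

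Library scaling bears on the size of these changes. With library totals alone the median of all genes was -0.19, and 3288 genes were higher and 5359 lower in DP, against 4328 and 4243 with TMM. Under that scaling 30 synthetases were higher and 4 lower, and 17 passed the 1.5-fold test upward. The 4 were Qars, Fars2, Tarsl2 and Vars. Some synthetase genes share exon bases with a neighbour, and the strand setting of the counting is not given in the sources used here. The largest overlap with an expressed neighbour was 2034 bases (22.9% of exon length) of Iars2 with Rab3gap2 on the opposite strand, and Mars1 shares 68 bases with Ddit3. Aars shares 1326 bases (14.3% of exon length) with Exosc6 on the same strand, which no strand setting separates. Exosc6 had 0 counts, and the effect of this overlap on the Aars counts was not tested. Whether processed copies of these genes took reads was not tested.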

How the data were processed

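RNA was sequenced from DP and DN cells (3 libraries each), all with the same batch label. The deposited values are whole-number counts per gene, and per the submitters' processing notes the authors used Trim Galore 0.6.6, STAR 2.7.10a, HTSeq 0.13.5 and mm10, with settings not given in the sources used here. The 5 summary rows held 9.56% of counts in DP and 12.6% in DN on average and were left out. Genes kept by edgeR's filter at a minimum count of 10 were tested with its quasi-likelihood test (edgeR 4.0.16, R 4.3.3, TMM), DP against DN, with Benjamini-Hochberg adjustment over 11296 genes. The same package's test against a minimum fold of 1.5 was run beside it. The fits were first tested on simulated data. TPM used exon lengths of GENCODE M21, matched for 55141 of 55401 gene IDs. Libraries of one group differed beyond sampling noise (chi-square per degree of freedom of 1.96 to 3.26), so none was treated as a copy of another. That does not show whether they are biological or technical replicates. The common variation between libraries fitted by edgeR (the square root of its dispersion) was 3.31%. DP libraries were 1.88 times deeper, and precision is set by counts. Pair ratios were compared with exact two-sided permutation tests (SciPy 1.17.1). Alternatives covered scaling, filters, DESeq2 1.42.0, the replicate block, immunoglobulin genes and each library left out. The rule named all members whatever their values and, of each other list, the 4 genes with the smallest p, or all genes of lists of up to 6. Of these, 1 member and 1 gene of another list are not reported by name here, while counts and medians include them. The members and lists were chosen with earlier results of these data known. A planned comparison of protein sequences was not run.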

Additional observations from a re-analysis of the deposited data

How the results depend on the processing

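The direction of the family held under every scaling, filter and test tried, while single genes near no change moved. Higher calls ranged from 30 (library totals alone) to 34 (no filter), and from 32 to 34 with a library left out, against 32. Lower calls were 1 (Qars) with DESeq2 size factors, upper-quartile factors, a stricter filter, the replicate block or immunoglobulin genes left out, and 4 with library totals alone, against 0; leaving out a library gave 0 to 1. With library totals alone the medians were 0.82 (cytosolic) and 0.53 (mitochondrial), and the summed ratios 1.70 and 1.33; with no filter the medians were 1.09 and 0.80. With a library left out the mitochondrial median ranged from 0.73 to 0.81. The Tarsl2 change was -0.0227 with upper-quartile factors, -0.19 with totals alone, -0.0385 with a stricter filter and -0.0024 without immunoglobulin genes, and -0.0216 to 0.0755 with a library left out. With totals alone Vars was -0.12 and Hars2 -0.0665. With a library left out, the Yars over Yars2 difference ranged from -0.0861 to 0.18 and that of Cars over Cars2 from -0.13 to 0.0889. The cause was not tested. Same-number libraries had correlations of 0.0605, -0.0039 and -0.0142 in their deviations from the group means. These values cannot show whether libraries of one number came from one mouse. The replicate block gave 33 higher and 1 lower synthetases and 8589 changed genes, against 8571. The minimum-fold count was not run with DESeq2. Depth limits the low mitochondrial genes most, with Pars2 at 28 to 102 counts per library.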
